A study of Mus musculus with 88 samples.

Results

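The bed nucleus of the stria terminalis (BNST) and the medial prefrontal cortex (mPFC) of unstressed B6 mice were compared over the 18931 genes that are listed in the tables of both regions, of 48811 genes listed in any table of the series. The series holds 88 RNA-seq libraries from the mPFC, BNST and ventral hippocampus (vHPC) of control mice and of mice that went through chronic social defeat stress (CSDS), 1 library per mouse and region. The comparison rests on 5 BNST and 6 mPFC libraries of male control mice of the strain C57BL/6Crl (B6), labelled as 8 weeks old at dissection. Control mice were not defeated, and lived beside another control mouse that was changed daily while others were defeated. Like the defeated mice, they then took a social avoidance test with an unfamiliar mouse of the aggressor strain inside a perforated cylinder. From the end of the defeat period until dissection they were housed alone. The BNST and the mPFC libraries came from different mice.

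The mPFC is part of the cerebral cortex, where most neurons are glutamatergic projection cells that load glutamate into vesicles with Slc17a7 and that develop under transcription factors such as Emx1 and the Neurod family. The BNST belongs to the subpallium, whose neurons are for the greater part GABAergic and descend from progenitors that express Dlx genes. It is known for its many neuropeptides and for its part in anxiety and stress, and it lies beside the striatum, the septum, the anterior commissure and the lateral ventricle.

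Region and library preparation cannot be told apart in these data. The mPFC libraries were depleted of ribosomal RNA with Ribo-Zero and made with the ScriptSeq kit, whereas the BNST libraries were depleted with InDA-C primers and made with a NuGEN Ovation kit. The mPFC values are log2 CPM as deposited, that is, reads of a gene scaled to library size, and the BNST counts (12389258 to 16362207 per B6 control library) were turned into log2 CPM with TMM factors. No test was therefore made between the regions. A difference was called large where the group means lay at least 3 apart on the log2 CPM scale, which is 8-fold, the values of the 2 groups did not overlap, and the higher mean was at least 1 log2 CPM. All differences are given as BNST minus mPFC on the log2 CPM scale, and values for a region are the mean ± SD of 5 BNST or 6 mPFC mice.

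By this rule 203 genes (1.07%) were higher in the BNST and 1016 (5.37%) were higher in the mPFC. Of the 14168 protein-coding genes, 183 (1.29%) were higher in the BNST and 223 (1.57%) in the mPFC. The mPFC table had been filtered on low values by the authors and the BNST table had not, so a gene low in the BNST stayed in the comparison where a gene low in the mPFC did not. The counts for gene lists below share this limit, because they cover measured members only. With the same filter on the BNST, 203 genes were higher in the BNST and 306 in the mPFC, and after joint quantile normalization 450 and 550. The balance of the protein-coding genes turned with the scaling, to 355 and 94 after quantile normalization, 352 and 131 after centring on the median difference, and 192 and 161 after centring on GC content and length. The counts therefore give no balance between the regions. The median difference was -0.63 over all genes and -0.48 over protein-coding genes, so a gene near these values was level with the rest of its table. Small differences without overlap were common. All BNST libraries lay above all mPFC libraries for 16.2% of genes, and below them for 50.6%. Over protein-coding genes these shares were 19.4% and 47.7%. The median SD between mice was 0.33 in the BNST and 0.14 in the mPFC. Only the mPFC values had been adjusted for library batches, by the authors, so these SDs are not like measures. The rule on overlap shares this limit. On either side of the threshold stood the choline transporter gene Slc5a7 (2.99, not called) and the glial transcription factor gene Sox10 (3.1, called), and, in the other direction, the peptide gene Cck (-2.97, not called) and the adrenoceptor gene Adra1d (-3.07, called).

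**Figure D1:**
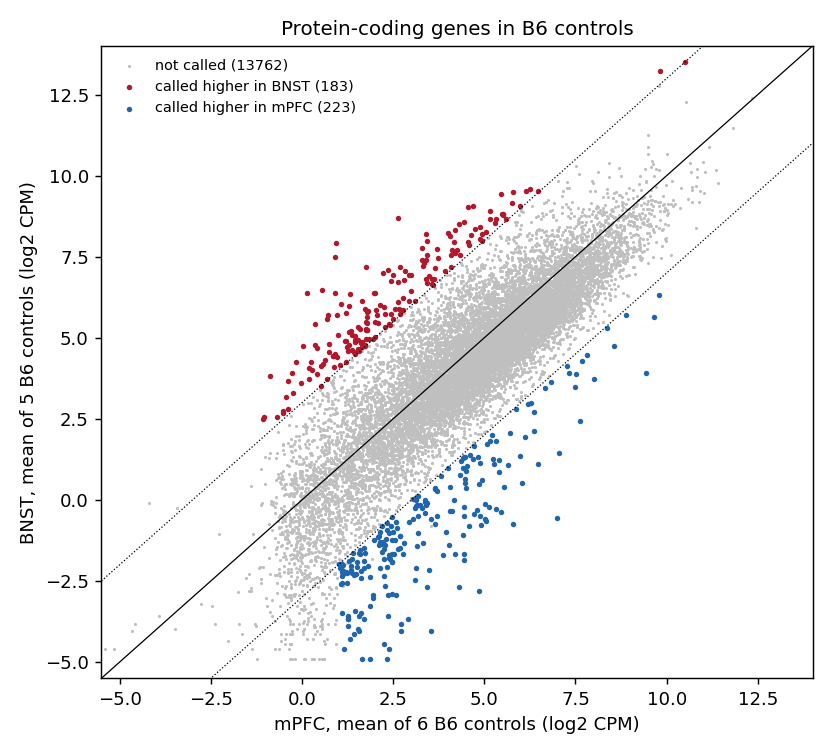
Mean log2 CPM of each protein-coding gene in the 6 mPFC libraries (x axis) and the 5 BNST libraries (y axis) of B6 controls, with the line of equal level and dotted lines 3 above and below it. The 183 genes called higher in the BNST are red and the 223 called higher in the mPFC are blue; most genes lie near the line, with a median difference of -0.48.

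The genes of cortical glutamatergic neurons were lower in the BNST. Of 18 measured members of this list, 10 were called higher in the mPFC and 0 higher in the BNST, with a median difference of -3.24. Of these calls 7 were left after quantile normalization and 6 after centring on the median of all genes, where Fezf2, Slc30a3, Neurod1 and Slc17a7 fell under the threshold and the median was -2.61. Neurod6, a transcription factor of cortical projection neurons (chr6:55677822-55681263, GRCm38), had the largest difference of the list. Its level was 0.29, 1.46, -2.65, 0.88 and -2.73 log2 CPM in the 5 BNST libraries, from 2 to 41 reads each. In the mPFC it ranged from 6.75 to 7.18 with a median of 7.00. The groups lay far apart, at -0.55 ± 2.00 and 7.01 ± 0.15, a difference of -7.56.

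Emx1, which marks the cortical progenitor zone and its descendants, was at -0.67, 0.81, -2.65, -4.74 and -5.05 log2 CPM in the BNST, with 9, 26, 2, 0 and 0 reads. In the mPFC it ranged from 2.66 to 3.57 (median 3.1), and the difference was -5.55. Neurod2 (-4.58), Bhlhe22 (-4.36), Nrn1 (-4.01), Slc30a3 (-3.60), Neurod1 (-3.31) and Fezf2 (-3.17) were among the other transcription factor, neuritin and zinc transporter genes called lower in the BNST. Slc17a7, which encodes the vesicular glutamate transporter of cortical neurons (chr7:45163949-45176142), varied widely between BNST libraries, with 5.06, 6.78, 1.90, 3.39 and 4.29 log2 CPM. The mPFC libraries ranged from 7.49 to 7.89 (median 7.66), so that even the highest BNST library lay below the lowest mPFC library, and the difference was -3.4. Leaving out BNST replicate 3 moved it to -2.80, under the threshold, and leaving out BNST replicate 4 moved Slc30a3 to -2.90. Not all cortical genes followed. The layer genes Rorb (-0.53), Cux2 (-0.73) and Lamp5 (-0.78) lay close to the median of all genes, and Cux1 (0.55) and Tle4 (0.61) were higher in the BNST without overlap.

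The BNST libraries were unequal in this list. Replicate 2 held the highest value for 12 of the 18 members, and its summed level was 1074 CPM, against 716 CPM in replicate 5, the lowest. The mPFC libraries summed to between 2380 and 2867 CPM. Whether the tissue piece contributed to these levels was not tested. In bulk tissue, fewer cells of a type and less RNA per cell cannot be told apart.

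Genes of striatal medium spiny neurons, the GABAergic projection cells of the caudate putamen and nucleus accumbens, were the list with the highest median difference, 3.39. All 14 measured members were higher in every BNST library than in every mPFC library, and 8 of them were called, with 0 called higher in the mPFC. Syndig1l (chr12:84677277-84698831), a transmembrane protein gene enriched in striatum, was at 7.46, 7.60, 8.32, 8.76 and 7.51 log2 CPM in the BNST. In the mPFC it ranged from -0.69 to 1.77 (median 1.11). The means were 7.93 ± 0.58 and 0.93 ± 0.89, a difference of 7.00, or 128-fold, the largest of any protein-coding gene called higher in the BNST.

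Drd2, the dopamine receptor gene of indirect pathway neurons (chr9:49340627-49408177), was at 7.31, 7.24, 7.85, 8.12 and 6.95 log2 CPM in the BNST, from 2047 to 3706 reads. In the mPFC it ranged from -0.95 to 2.47 (median 1.08), and the difference was 6.60. Adora2a, the adenosine receptor gene of the same neurons, was at 7.01 ± 0.37 in the BNST and 2.22 ± 1.38 in the mPFC, a difference of 4.8. The orphan receptor gene Gpr6, also known from indirect pathway neurons, differed by 3.80. Lrrc10b (4.4), the phosphatase regulator gene Ppp1r1b (3.98), the small GTPase gene Rasd2 (3.52) and the G protein regulator gene Rgs9 (3.27) were the others called. Drd1, the dopamine receptor gene of direct pathway neurons, had a smaller difference, with 7.152 ± 0.22 against 4.99 ± 0.60 log2 CPM (2.16). The striatal genes also varied within each region. In the BNST, replicate 4 held the highest value for 12 of the 14 members and summed to 6981 CPM, and replicate 5 was lowest at 3404 CPM. In the mPFC the sums ranged from 421 to 768 CPM. The lowest BNST sum still lay far above the highest mPFC sum. Whether striatal tissue in the dissected pieces contributed to these levels, Drd2 and Adora2a among them, was not tested. In D2 controls the median difference of the list was 3.68, and that of the cortical glutamatergic list -3.47.

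Genes of GABA synthesis and subpallial development were higher in the BNST in part. Of 22 gene entries of 21 genes, 5 were called higher in the BNST and 1 higher in the mPFC, with a median difference of 0.93. The vesicular GABA transporter gene Slc32a1 was at 7.45, 7.7, 7.90, 8.55 and 7.64 log2 CPM in the BNST and between 4.31 and 4.83 (median 4.56) in the mPFC, a difference of 3.26. The genes of both GABA synthesising enzymes differed less, although no library overlapped. Gad2 was at 9.0 ± 0.09 and 7.56 ± 0.22 (1.44), and Gad1 at 8.77 ± 0.23 and 7.87 ± 0.35 (0.90).

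The transcription factor genes moved apart among themselves. Zfhx3 (chr8:107942644-108961630) was at 8.11, 7.57, 8.45, 8.78 and 8.02 log2 CPM in the BNST and between 3.32 and 3.56 (median 3.37) in the mPFC, a difference of 4.78 that was large against SDs of 0.46 and 0.09. Isl1, a factor of striatal and cholinergic neurons (chr13:116298281-116309689), was at 4.13, 3.52, 4.11, 3.5 and 3.80 in the BNST. In the mPFC it was spread from -4.92 to 1.59 (median -0.76), and the difference was 4.69. Dlx5 (3.91) and Sp9 (3.88) were called higher in the BNST as well, and Dlx6 (2.3) and Dlx2 (2.01) were higher without overlap. Dlx1 (-0.46) overlapped between the regions. Sp8, a factor of interneurons and of the olfactory bulb, went the other way, at -0.42 ± 0.75 in the BNST and 3.37 ± 1.134 in the mPFC (-3.79).

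**Figure D2:**
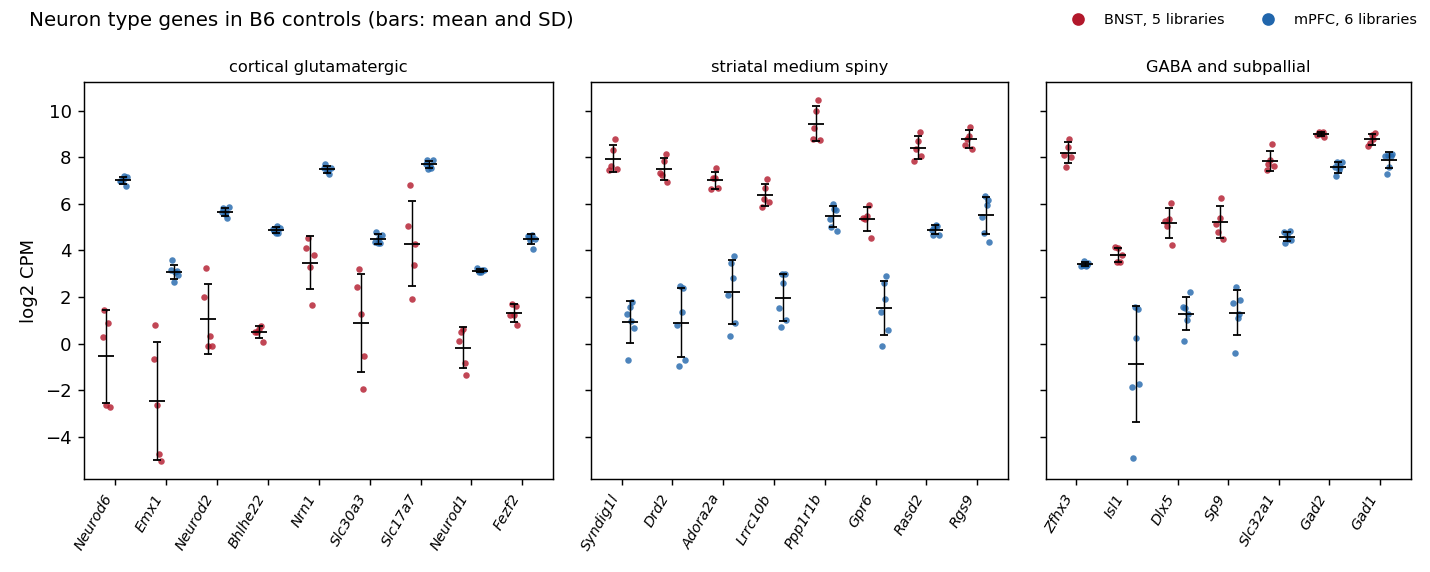
Log2 CPM (y axis) of 9 cortical glutamatergic genes, the called striatal medium spiny neuron genes and 7 GABA and subpallial genes in each BNST (red) and mPFC (blue) library of B6 controls, with black bars for mean and SD. The cortical genes lie lower in the BNST with wide spread, for example Slc17a7 from 1.90 to 6.78, and the striatal genes lie higher in the BNST in every library.

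Markers of the tissue around the BNST were checked beside these lists. Of 9 measured thalamic genes, 1 was called, the Wnt pathway transcription factor gene Tcf7l2, at 5.88 ± 0.62 in the BNST and 1.72 ± 0.18 in the mPFC (4.16). The summed thalamic level was 584 CPM in BNST replicate 3 and 707 CPM in replicate 5, against 325 to 345 CPM in the other BNST libraries and 421 to 495 CPM in the mPFC. Of 8 measured hypothalamic genes, 0 were called, which is no result for so short a list, and the median difference was 0.14. The list held 21 genes, and those without an mPFC value could not be called. Among these, Magel2 was at 3.19 ± 0.50 log2 CPM in the BNST and Irs4 at 1.95 ± 1.17, whereas Hcrt was at -3.01 ± 1.21. Of 4 measured choroid plexus genes, 1 was called, the chloride channel gene Clic6 (4.42), whereas Kcnj13, which defines that tissue, was at 0 to 2 reads in every BNST library.

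The neuropeptides did not move as one group. The list held 39 precursor genes, and those without an mPFC value could not be called higher in the BNST. Among these, Avp was at 1.39 ± 0.95 log2 CPM in the BNST and Oxt at -0.63 ± 2.51. Of 26 measured precursor genes, 2 were called higher in the BNST and 2 higher in the mPFC, and 10 overlapped between the regions. The median difference of -0.48 equalled that of protein-coding genes. It turned to 0.15 when differences were centred on the median of all genes and to 0.59 after joint quantile normalization. Penk, the precursor of the enkephalins (chr4:4133531-4138819), was at 9.24, 9.46, 9.67, 10.42 and 8.87 log2 CPM in the BNST, from 7735 to 18221 reads. In the mPFC it ranged from 5.25 to 6.74 (median 6.31), and the difference was 3.4, or 10.53-fold. Across the BNST libraries Penk had the order of the summed striatal genes, highest in replicate 4 and lowest in replicate 5. In the mPFC both were lowest in replicates 2 and 6. Whether striatal tissue contributed to the Penk level was not tested. The proSAAS gene Pcsk1n, whose product inhibits a prohormone convertase, was at 9.05 ± 0.79 and 4.56 ± 0.13 (4.48). Tac1, the precursor of substance P, was at 6.21 ± 0.36 in the BNST and 3.91 ± 0.63 in the mPFC. Its difference of 2.3 did not reach the threshold, and its values did not overlap. The dynorphin gene Pdyn (1.95) and the neurokinin B gene Tac2 (1.97) were similar to Tac1.

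Vip, the precursor of vasoactive intestinal peptide and a marker of cortical interneurons (chr10:5639218-5647617), had the largest difference of the list. It was at 0.81, -0.16, -0.72, -1.28 and -0.01 log2 CPM in the BNST, from 5 to 26 reads, and between 5.194 and 5.52 (median 5.3) in the mPFC. The difference was -5.60, with no BNST library above 0.81. Adcyap1, which encodes the related peptide PACAP (chr17:93199017-93206537), was at -0.11 ± 1.23 and 5.01 ± 0.12 (-5.12). Cck was at 3.82 ± 0.45 and 6.78 ± 0.15 (-2.97). Crh, the precursor of corticotropin-releasing hormone, was at 2.69, 2.38, 0.64, 1.6 and 0.44 log2 CPM in the BNST and between 3.1 and 3.51 (median 3.42) in the mPFC. Its difference of -1.81 was under the threshold, and no BNST library reached the mPFC range. Sst (0.77) and Npy (-0.84) overlapped between the regions.

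The stretch before the transcription start is shown for 4 peptide genes as examples. Vip and Adcyap1 were the 2 precursors called lower in the BNST, Tac1 was higher without a call and Sst overlapped. No promoter sequence was available for Penk, which was called higher, or for Crh. The cAMP response element has the letters TGACGTCA, with TGACG as its core on either strand (read as CGTCA on the other), and the core stands in capitals. Each sequence is the 150 bases before the start, 5′ to 3′ along the gene, from RefSeq in build GRCm38.p6.
Vip (chr10:5639068-5639217, plus strand): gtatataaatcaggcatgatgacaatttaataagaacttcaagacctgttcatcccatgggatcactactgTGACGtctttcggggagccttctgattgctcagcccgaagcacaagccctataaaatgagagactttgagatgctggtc
Adcyap1 (chr17:93198867-93199016, plus strand): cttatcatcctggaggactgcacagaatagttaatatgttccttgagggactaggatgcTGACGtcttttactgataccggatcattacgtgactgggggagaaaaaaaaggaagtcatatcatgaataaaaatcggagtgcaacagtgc
Sst (chr16:23890845-23890994, minus strand): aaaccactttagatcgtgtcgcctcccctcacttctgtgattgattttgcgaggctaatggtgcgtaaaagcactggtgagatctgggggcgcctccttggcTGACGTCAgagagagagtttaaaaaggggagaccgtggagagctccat
Tac1 (chr6:7554911-7555060, plus strand): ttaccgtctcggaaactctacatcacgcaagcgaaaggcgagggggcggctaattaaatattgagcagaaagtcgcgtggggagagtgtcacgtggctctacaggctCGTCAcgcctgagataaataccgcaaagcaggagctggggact

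All 4 stretches held the core, but they do not stand for the list, where 11 of 23 promoters held it within 250 bases. It began at base -79 in Vip, -91 in Adcyap1 and -43 in Tac1, counted back from the start, and in Sst it stood on both strands within a whole element at base -48. In the 250 bases before the start, the core was present in 17.8% of 32851 RefSeq promoters and the whole element in 1.55%. Among the 23 promoters found for 21 of the measured peptide precursors these shares were 47.8% and 13.04%. Among the promoters of protein-coding genes called higher in the BNST the core was present in 19.6%, and of those called higher in the mPFC in 18.6%. Genes of both directions therefore carried it at nearly the share of all promoters, and a match describes letters only.

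Receptors for peptides were read beside the shares of all protein-coding genes called, 1.29% higher in the BNST and 1.57% higher in the mPFC. Of 34 measured members, including the binding protein gene Crhbp, 1 was called higher in the BNST and 3 higher in the mPFC, with a median difference of -0.69. Tacr1, the receptor of substance P, was at 5.63, 5.43, 5.3, 5.69 and 5.45 log2 CPM in the BNST and between 0.69 and 2.45 (median 2.19) in the mPFC, a difference of 3.51. Tacr3, the neurokinin B receptor gene, differed in the same direction by 2.87 and Oprm1, the mu opioid receptor gene, by 1.99. Crhbp, whose product binds and holds CRH, was at -0.36 ± 1.25 and 4.10 ± 0.21 (-4.46). The somatostatin receptor gene Sstr3 (-3.97) and the natriuretic peptide clearance receptor gene Npr3 (-3.32) were also called lower in the BNST. Crhr1, the main CRH receptor gene of the forebrain, overlapped at 3.39 ± 0.50 and 3.91 ± 0.14. Oxtr, the oxytocin receptor gene, was at 2.77 ± 0.24 and 3.37 ± 0.22, a difference of -0.60 that was close to the median of all genes (-0.63) and became 0.03 when differences were centred on that median.

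Steroid and pituitary hormone receptor genes gave no call among 10 measured members. With 1.29% and 1.57% of all protein-coding genes called, that is no result for a list this short. The median difference of the list was -0.59 and became 0.04 after centring on the median of all genes. The oestrogen receptor gene Esr1 was at 2.38, 1.01, 1.85, 1.71 and 1.32 log2 CPM in the BNST and between 2.79 and 3.52 (median 3.33) in the mPFC (-1.59). The progesterone receptor gene Pgr differed by -1.0. The prolactin receptor gene Prlr was higher in the BNST by 2.54, and by 3.17 after centring, where it was called. Its difference was 3.118 in D2 controls, 1.11 in B6 resilient and 3.13 in B6 susceptible mice.

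Receptors for monoamines, acetylcholine, adenosine and cannabinoids had 4 of 37 measured members called higher in the BNST and 2 higher in the mPFC, with a median difference of -0.43 that turned to 0.19 after centring and 0.27 after quantile normalization. Beside Drd2 and Adora2a these were a pair of serotonin receptor genes. Htr1d was at 4.7, 4.99, 4.44, 5.13 and 4.49 log2 CPM in the BNST and between -1.47 and 1.178 (median 0.39) in the mPFC, a difference of 4.72. Htr6 was at 3.65 ± 0.60 and -0.38 ± 0.28 (4.04). The nicotinic receptor subunit gene Chrna5 was lower in the BNST by 4.08 on the log2 scale, with 1 to 8 reads per BNST library. Adra1d was at -1.01, -0.27, 2.21, -2.42 and 1.84 log2 CPM in the BNST against 2.92 to 3.34 in the mPFC, and its call was lost without BNST replicate 1, 2 or 4 (-2.80, -2.98 and -2.44). Of 6 measured enzyme and transporter genes of monoamine and acetylcholine neurons, 1 was called. Chat, the acetylcholine synthesising enzyme gene of cholinergic neurons, was at 3.65, 4.10, 4.23, 4.42 and 4.83 in the BNST and between -0.91 and 1.35 (median 0.16) in the mPFC, a difference of 4.01. The choline transporter gene Slc5a7 of the same neurons differed by 2.99.

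The receptor subunit genes held few calls, as did protein-coding genes as a whole (1.29% and 1.57%). Among 19 GABA and glycine receptor subunits 0 were called, and the glycine receptor gene Glra1 had the highest difference (2.26). Among 22 glutamate receptor genes 1 was called, the NMDA receptor subunit gene Grin2d, at 5.78 ± 0.60 and 1.77 ± 0.19 (4.01). The metabotropic receptor gene Grm4 was higher in the BNST by 2.82. Of 14 genes of cortical interneurons, Vip and Crhbp were called lower in the BNST, whereas Pvalb (-0.55) and Calb1 (-0.63) were near the median of all genes and Reln was at 0.00.

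**Figure D3:**
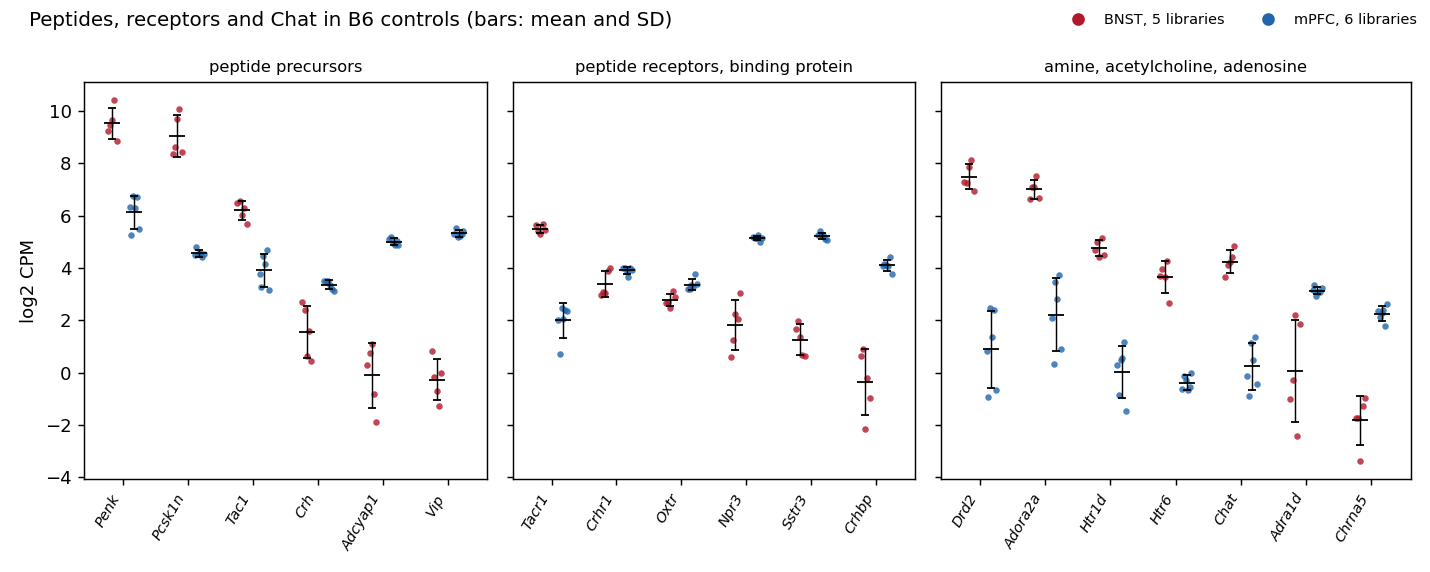
Log2 CPM (y axis) of peptide precursors, peptide receptors with Crhbp, and amine, acetylcholine and adenosine genes in each BNST (red) and mPFC (blue) library of B6 controls, with black bars for mean and SD. Penk, Pcsk1n, Tacr1, Drd2, Adora2a, Htr1d, Htr6 and Chat lie higher in the BNST, Vip, Adcyap1, Crhbp, Sstr3 and Npr3 lie lower, and Crhr1 overlaps.

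Glial lists held few calls, but with 1.29% and 1.57% of all protein-coding genes called, few calls are no result for lists this short. Of 14 genes of mature oligodendrocytes (OLGs), the myelin forming cells, 1 was called higher in the BNST, with a median difference of 0.46. That gene was Fa2h, which hydroxylates myelin lipids, at 6.75 ± 0.55 and 2.43 ± 0.38 (4.32). Of the 14, 9 overlapped. Among all protein-coding genes, 19.4% lay above and 47.7% below without overlap. BNST replicate 5 held the highest value for 14 of the 14 members and summed to 5526 CPM, against 2097 to 3879 CPM in the other BNST libraries and 1336 to 2570 CPM in the mPFC. Of 8 genes of OLG precursors, 1 was called higher in the BNST, with a median difference of 0.83. Sox10, a transcription factor of the OLG lineage, was called at 3.1, but not without BNST replicate 3 (2.998) or 5 (2.97). Of 13 astrocyte genes, the angiotensinogen gene Agt was called at 3.13, and was at 2.94 and 2.82 without BNST replicate 3 or 5. Gfap, the astrocyte filament gene, overlapped at 5.45 ± 0.85 and 6.37 ± 0.27. None of the 10 microglial, 8 endothelial, 5 ependymal or 7 meningeal fibroblast genes were called, which for lists this short is no result.

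The olfactory bulb list showed a library that stood apart in the mPFC. Of 7 members, Eomes and Omp were called higher in the mPFC. After quantile normalization 0 of 7 were called, Omp was called under 2 of 6 scalings and prior counts, and 2 of the 7 passed the filter on low values in the BNST, neither of them called. Eomes was at -1.82 log2 CPM in mPFC replicate 2 and at 2.84 to 4.4 in the others. The list summed to 6.53 CPM in replicate 2, just under the BNST range of 6.73 to 13.9 CPM, and to 41.8 to 95.6 CPM in the other 5 mPFC libraries. Sp8, called above, was at 1.2 in the same library and at 3.05 to 4.09 in the others. Without mPFC replicate 2, Eomes and Sp8 were still called, but after quantile normalization both overlapped between the regions. Sp8 was not called in D2 controls (-2.10), B6 resilient (-3.06) or B6 susceptible mice (-4.28). Eomes was called in D2 controls (-5.29) but not in B6 resilient (-5.07) or B6 susceptible mice (-5.35). Omp was not called without BNST replicate 3 (-2.70). Whether olfactory tissue contributed to these mPFC values was not tested.

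**Figure D4:**
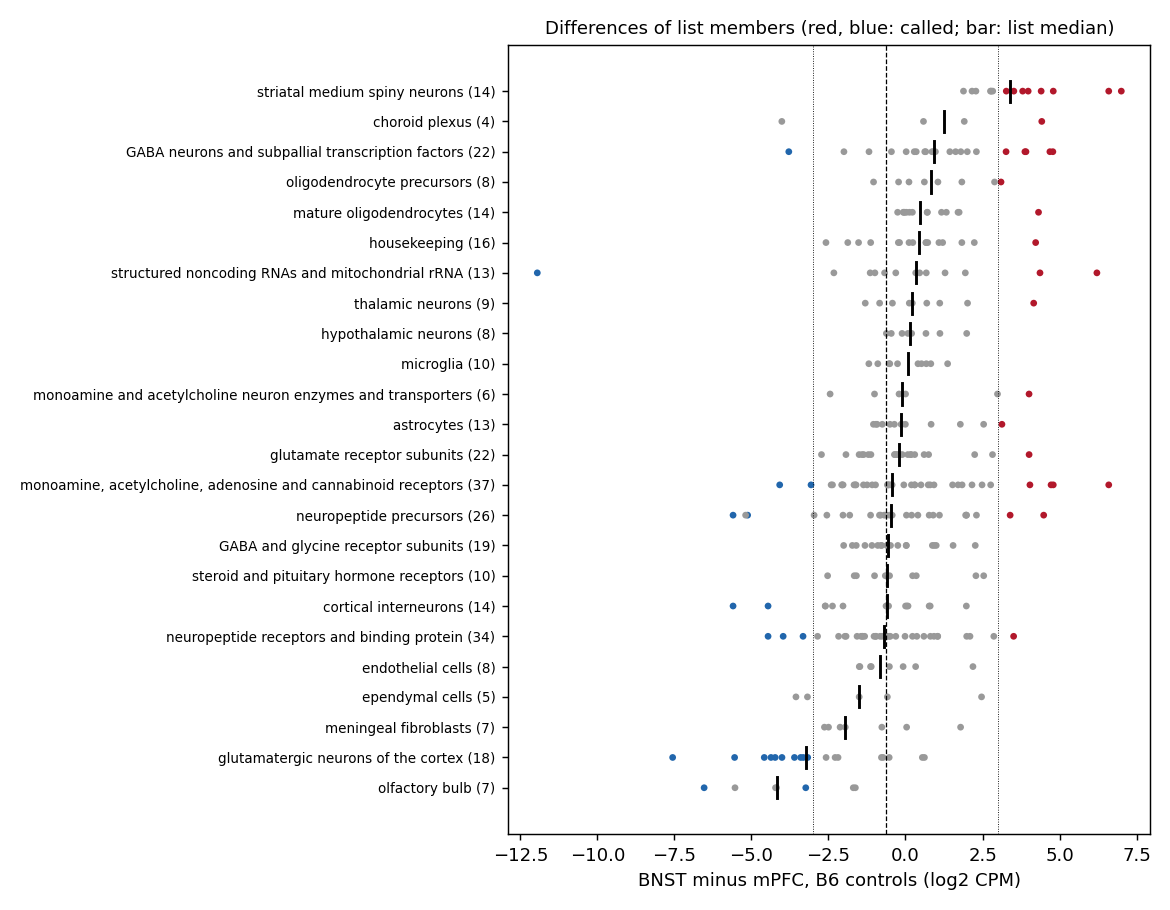
BNST minus mPFC difference in log2 CPM (x axis) of every measured member of the 24 lists, 1 row per list with its number of gene entries, B6 controls; called members are red or blue, other members grey, black bars are list medians, the dashed line is the median of all genes (-0.63) and dotted lines are at 3 and -3. Striatal genes have the highest median (3.39) and cortical glutamatergic and olfactory bulb genes the lowest.

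Beyond the lists, the 10 protein-coding genes furthest in each direction were of several kinds. Beside Syndig1l and Drd2, those higher in the BNST included the ribosomal protein gene Rpl28 (6.25), the AMPA receptor associated gene Prrt1 (6.07), the T cell coreceptor gene Cd4 (5.91), the transcriptional repressor gene Scrt2 (5.45), Mbd6 (5.44), the neuronal endopeptidase gene Ecel1 (5.08), the mucin gene Muc3a (5.00) and the translation repressor gene Eif4ebp2 (4.99). Cd4 was at 6.10, 6.10, 6.81, 7.49 and 5.82 log2 CPM in the BNST and between -0.67 and 1.65 in the mPFC. Rpl28 was at 6.389 ± 0.54 and 0.14 ± 0.32, and in the vHPC controls at 0.96. The vHPC libraries shared the Ribo-Zero depletion with the mPFC but were made with another kit (Nextera). Whether library preparation contributed to the Rpl28 difference was not tested.

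Beside Neurod6, those higher in the mPFC included the hexokinase domain gene Hkdc1 (-7.67, 0 to 5 reads per BNST library), the myosin binding protein gene Mybpc1 (-7.58, 0 to 3 reads), Acot10 (-7.00, 0 to 1 reads), Gm11549 (-6.99, 0 to 24 reads), the anion exchanger gene Slc26a4 (-6.75, 0 to 3 reads) and Itprid1 (-6.71, 0 to 2 reads). These differences depend on the prior count added to BNST reads. With a prior count of 2 in place of 0.5, Mybpc1 moved to -6.08 and Itprid1 to -4.97. Ovol2, Efcab3 and the mitochondrial subunit gene mt-Nd3 had 0 reads in all 5 BNST libraries. Set against 3 counts per BNST library, the mean mPFC level was at least 21.9-fold higher for Ovol2, 15.8-fold for Efcab3 and 13.6-fold for mt-Nd3. The mean for mt-Nd3 covers a wide spread, at 1.66 ± 1.28 log2 CPM with the lowest mPFC library at -0.56. Its difference was -5.94 in B6 resilient mice, where it was called. In D2 controls (-1.60) and B6 susceptible mice (-1.05) it was not called, whereas Ovol2 and Efcab3 were called in each of these groups. The neurotrophin gene Bdnf, named after its value was seen, was at 0.58, 1.11, -0.11, -3.15 and -0.30 log2 CPM in the BNST and 5.46 ± 0.14 in the mPFC (-5.83).

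Other kinds of RNA are described by their levels. They were compared only where they had passed the filter in the mPFC, which kept genes low in the BNST, so their calls in that direction give no count of the kind as a whole. The 1108 processed pseudogenes had a median level of -1.92 log2 CPM in the BNST, 1.45 in the mPFC and 1.57 in the vHPC. The 76 genes of cytosolic ribosomal proteins, a set chosen after their values were seen, were read separately. Of these 15 were called higher in the BNST and 0 higher in the mPFC, beside 1.29% and 1.57% of all protein-coding genes. Because the set was picked on these values, its count is a description only. Its median levels were 5.29 in the BNST, 3.79 in the mPFC and 3.84 in the vHPC. Of 16 housekeeping genes, Gapdh was called, at 8.22 ± 0.47 in the BNST, 3.99 ± 0.11 in the mPFC and 4.32 in the vHPC. Actb was at 9.99 ± 0.41 and 9.27 ± 0.06. Of 13 structured noncoding RNAs, 2 were called higher in the BNST and 1 higher in the mPFC. The mitochondrial ribosomal RNA mt-Rnr1 was at 15.9 in the BNST, 9.66 in the mPFC and 10.46 in the vHPC. The small RNA Rn7sk had 0, 0, 0, 9 and 0 reads in the BNST libraries and was at 7.88 ± 0.34 in the mPFC. The share of a regional or library part in these values cannot be told apart.

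The difference also rose with GC content. The GC content of the longest coding transcript was known for 99.9% of the protein-coding genes, and over these 14151 genes, which are not independent replicates and share the same 11 libraries, Spearman's rho between GC content and difference was 0.45 in B6 and 0.30 in D2 controls. The median difference went from -1.18 in the lowest of 20 GC bins to 0.71 in the highest. Genes called higher in the BNST had a median GC content of 56.8%, those called higher in the mPFC 48.4%, and all coding genes 50.1%. When each gene was set against genes of like GC content and length, 142 of the 183 and 151 of the 223 called genes still differed by at least 3. Drd2 was then at 6.71, Syndig1l at 6.68, Penk at 3.90, Neurod6 at -6.40 and Vip at -4.43, and Slc32a1 fell under the threshold at 2.67.

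**Figure D5:**
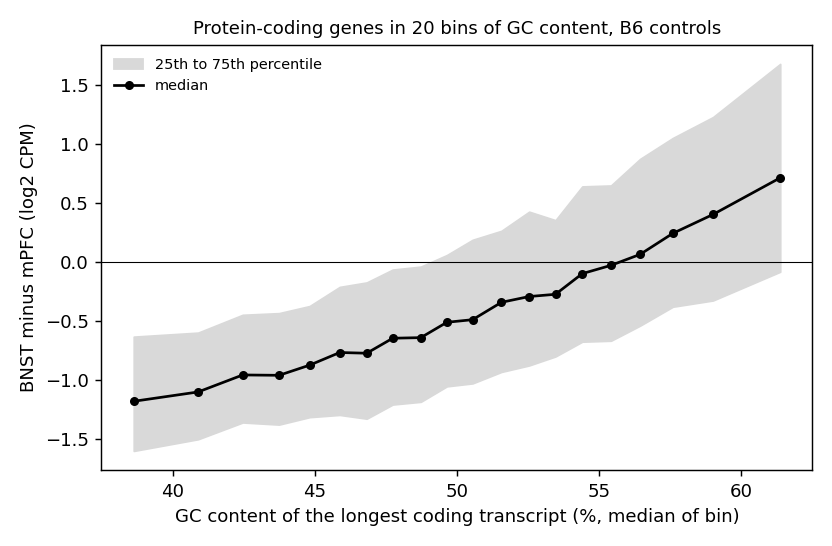
Median difference between BNST and mPFC in B6 controls (y axis, log2 CPM) for protein-coding genes in 20 bins of equal size by GC content (x axis, %), with the range from the 25th to the 75th percentile in grey. The median rises from -1.18 in the lowest bin to 0.71 in the highest.

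The same comparison was made in mice that the B6 control calls had not used, prepared with the same kits. In control mice of the strain DBA/2Crl (D2; 5 BNST and 6 mPFC), 137 genes (0.724%) were higher in the BNST and 993 (5.25%) in the mPFC. Of the 183 protein-coding genes called higher in the BNST of B6 controls, 103 were called in D2 controls, which is 56.3% of the B6 list and 83.1% of the D2 list. Of the 223 called higher in the mPFC, 153 were called, 68.6% of the B6 and 69.5% of the D2 list. No gene was called in opposite directions. In B6 resilient mice (5 BNST and 6 mPFC), where 1.2% of all genes were called higher in the BNST and 5.17% in the mPFC, 176 and 148 of these coding genes were called again. In B6 susceptible mice (5 and 6), with 1.17% and 5.38% of all genes called, they were 154 and 179. In all 4 groups, 101 coding genes were called higher in the BNST and 108 higher in the mPFC. The difference in D2 controls was 6.80 for Drd2, 6.93 for Syndig1l, 3.24 for Penk, -7.86 for Neurod6, -6.61 for Vip and -4.91 for Slc17a7, all called. Genes named above that were not called in D2 controls included Slc32a1 (2.90), Muc3a (2.84), Htr6 (2.15), Npr3 (-2.62) and Sp8 (-2.10). Pcsk1n (3.72), Omp (-3.05) and Adra1d (-3.03) passed the threshold there but were not called either. In B6 resilient mice Slc17a7 differed by -1.98 and Slc30a3 by -2.25, and neither was called, whereas in B6 susceptible mice they differed by -5.67 and -5.42.

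The strains were compared within each table, where a test was possible. In the BNST, 439 of 17515 genes (2.51%) differed between D2 and B6 controls at an adjusted p under 0.05 (edgeR's quasi-likelihood test, Benjamini-Hochberg), and in the mPFC 5265 of 18946 genes (27.8%, limma). The called genes were chosen on the same B6 libraries, so no count of them is given for the strains. Whether a regional difference itself differed between the strains was not tested.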

How the data were processed

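RNA-seq libraries of BNST (5) and mPFC (6) from B6 controls were compared, with D2 controls, B6 resilient and B6 susceptible mice as further groups. Groups came from the sample labels. STAR was used by the authors for alignment to GRCm38, after trimming of adapters and removal of PCR duplicates, and HTSeq for counting over gene exons. The strand setting is not given in the sources used here, so a gene and its antisense partner, and close gene copies, may share reads. The deposited BNST table holds whole counts without further steps. The deposited mPFC and vHPC tables hold log2 CPM after a filter of 1 CPM in at least 6 libraries, voom and ComBat. The counts behind them are unknown.

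The BNST counts were scaled with TMM factors (0.82 to 1.22 in B6 controls, prior count 0.5) over 28 libraries. Strains were compared with edgeR 4.0.16 in the BNST and limma 3.58.1 in the mPFC, each with all groups in the fit. Both tests were run on simulated counts. The rule for calls was run only on a simple simulated set, without its minimum level, an offset between the regions, a GC trend or low counts. That run checks the arithmetic of the rule and not its behaviour on these data. R 4.3.3, DESeq2 1.42.0, sva 3.50.0, Python 3.11.15, NumPy 2.4.6, SciPy 1.17.1 and pandas 2.3.3 were used. Symbols came from GENCODE M21 (99.6% of shared genes), and 15 mPFC genes without a BNST row were not analysed here.

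The genes, lists and rules were chosen with earlier results of these data known. Genes were named if they were among the 10 protein-coding genes furthest in each direction, were called members or the 2 furthest members of one of 24 lists, or belonged to a list of 14 genes such as Crh, Oxtr and Esr1. Further list members are named to describe their list. Genes on chromosome 18 and a few other genes are not reported here. Alternatives were other scalings, filters, prior counts and thresholds, and leaving out each mouse. Centring on GC content and length, the count of protein-coding genes alone and the use of 1 BNST library set at a time are alternatives chosen after seeing the data.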

Additional observations from a re-analysis of the deposited data

Results flagged for a closer look

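In 15 of 197 groups of control libraries (101 named genes, each in the BNST and the mPFC unless all BNST counts were equal), 1 library lay far from the others, by Dixon's ratio of its gap to the range of the group. Chance flags about 1 in 20 such groups. In the mPFC, 5 of the 9 flagged values belonged to B6 control replicate 2. In that library Eomes was at -1.82 log2 CPM against 2.84 to 4.4 in the others (ratio 0.748), Sp8 at 1.2 against 3.05 to 4.09 (0.641), S100a5 at -4.57 against 0.78 to 2.42 (0.765), Nppa at -1.99 against 0.43 to 0.95 (0.825) and the substance P receptor gene Tacr1 at 0.69 against 2.03 to 2.45 (0.759).

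mPFC replicate 5 held the other flagged values. It was low for Fezf2, at 4.07 against 4.46 to 4.66 (0.672), and high for Olig1, at 4.04 against 3.51 to 3.62 (0.784), C1qb, at 4.34 against 3.91 to 4.03 (0.724), and Oxtr, at 3.78 against 3.2 to 3.39 (0.669).

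In the BNST, the flagged values of Acot10 (0.844), Itprid1 (0.873), Omp (0.76), Rn7sk (0.971) and Ccdc153 (0.923) rest on 0 to 13 reads. The endothelial gene Ly6c1 was at 5.65 log2 CPM in replicate 4 and at 4.64 to 4.86 in the others (0.78).

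The BNST table also lists 29864 genes that have no row in the mPFC table, which the authors had filtered. Of these, 134 were above 1 log2 CPM in all 5 B6 control libraries, 82 of them protein-coding. Among the listed marker genes these included Six3, a striatal transcription factor gene, at 7.03 ± 0.67 log2 CPM (1294 to 3569 reads, n = 5), the vesicular acetylcholine transporter gene Slc18a3 at 4.10 ± 0.58, and the transcription factor genes Lhx8 (3.56 ± 0.38), Nkx2-1 (3.25 ± 0.41) and Gbx1 (2.68 ± 0.34). No difference from the mPFC was computed for them.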

How the results depend on the processing

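No paired analysis was possible because the BNST and mPFC libraries came from different mice and replicate numbers only follow the order of deposit. In B6 controls, counts higher in the BNST and in the mPFC were 450 and 550 after joint quantile normalization, 393 and 813 after centring on the median difference, 628 and 1723 at a threshold of 2, and 63 and 718 at 4. With the BNST filter 306 genes were higher in the mPFC, and without a minimum level 1663. For protein-coding genes the counts were 355 and 94 after quantile normalization, 352 and 131 after centring, 566 and 672 at 2, 52 and 104 at 4, 192 and 161 after GC and length centring, and 119 higher in the mPFC with the filter. In D2 controls they were 380 and 514, 287 and 773, 421 and 1564 (at 2), 44 and 647 (at 4), 292 (filter) and 1626 (no minimum level). Leaving out each mouse gave 176 to 221 and 999 to 1037 genes in B6 controls (161 to 202 and 211 to 231 protein-coding), 124 to 205 and 976 to 1028 in D2 controls, and 342 to 560 (BNST) and 4520 to 5490 (mPFC) genes between strains. BNST library set 1 alone gave 163 and 1003 genes, and set 2 alone 294 and 1095. DESeq2 called 660 genes between strains in the BNST, and a fit of the control groups alone 222. The share of calls higher in the BNST was 16.7%, and 45.0% after quantile normalization, 32.6% after centring and 39.9% with the filter, which removes genes low in the BNST. The median difference of all genes moved from -0.63 to -0.07 after quantile normalization and to -0.36 after rescaling to coding genes.

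Of the 66 named genes that were called, 56 were called under all 6 scalings and prior counts, 60 whichever mouse was left out, and 59 of 63 with a GC value after GC and length centring. No called difference changed sign under these settings. The calls lost were Fezf2, Slc30a3, Neurod1, Slc17a7, Sp8, Eomes, Omp, Npr3, Adra1d and Chrna5 under a scaling or prior count (-4.86 to -1.95), and Slc32a1, Neurod1, Npr3 and Sox10 after GC and length centring. Genes under 1 CPM in the BNST rest on few reads, and the precision of mPFC values is known only from the spread between mice.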
